A study of Mus musculus with 24 samples.

Results

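Hopx, its antisense RNA Hopxos and 5 further genes known from outer radial glia (Tnc, Ptprz1, Fam107a, Lifr and Il6st) were followed through 24 mRNA-seq libraries of dissected mouse archicortex (ARK), the medial cortical wall that holds the dentate neuroepithelium and the cortical hem. The 7 genes were picked by name among 51912 genes in the deposited table, and the question was whether Hopx changes alone or with the others when Sox9 is deleted. The study chose Hopx from the E13.5 libraries, so its direction at that age is not independent evidence. Of the 7, 6 passed the filter on low values, as did 16454 genes in all, and Hopxos did not. Hopx was lower in Sox9 mutants of the Sox1Cre line at both ages, by 0.63 on the log2 scale at E12.5 and 0.60 at E13.5, and no other member passed the test in any mutant comparison.

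HOPX is a small homeodomain protein that lacks the residues for binding DNA and works through partners such as serum response factor and histone deacetylases. It is known as a marker of outer (basal) radial glia, the cortical progenitors that have left the ventricular surface but keep a basal fibre. In mouse, where such cells are rare, it also marks the precursors and adult stem cells of the dentate gyrus. The other protein-coding members belong to the signature described for outer radial glia, and Hopxos is the antisense RNA of the Hopx locus. TNC (tenascin-C) is an extracellular matrix glycoprotein and PTPRZ1 a receptor-type tyrosine phosphatase that binds it. LIFR and IL6ST (gp130) form the receptor through which leukaemia inhibitory factor activates JAK and STAT3, and FAM107A is an actin-associated protein.

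The libraries form 6 groups of 4, all on a mixed C57BL/6J;MF1 background. At E12.5 and at E13.5, Sox9fl/fl;Sox1Cre mutants (A9 to A12 and A1 to A4) were compared with Sox9+/+;Sox1Cre controls (A13 to A16 and A5 to A8). At E13.5 only, Sox9fl/fl;NestinCre mutants (A17 to A20) were compared with Sox9+/+;NestinCre controls (A21 to A24). Every control carried the same Cre as its mutants. As models the lines differ: the targeted Sox1Cre allele removes Sox9 from all descendants of the neural plate, hem included, and with the NestinCre transgene, of later onset, most hem cells keep it and the dentate neuroepithelium has lost it only at the older age. Values are normalized read counts, and each library had between 16163560 and 49445219 reads on genes (median 23016925). Nothing in the labels says whether the 4 libraries of a group came from separate embryos, so the tests measure the spread between these libraries. In bulk tissue, fewer cells of a type and less RNA per cell cannot be told apart.

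Sox9, the deleted gene, was examined first. At E12.5 it was at 4391 in A13, 5265 in A14, 4237 in A15 and 4194 in A16 in controls and at 2785 in A9, 1733 in A10, 2593 in A11 and 1928 in A12 in mutants. At E13.5 the Sox1Cre controls had 5218 in A5, 5911 in A6, 5449.6 in A7 and 5731 in A8, and their mutants 3563 in A1, 2828 in A2, 3384 in A3 and 3677 in A4. The NestinCre controls had 5636 in A21, 4979 in A22, 4586 in A23 and 5406 in A24, and their mutants 3089 in A17, 2997 in A18, 3083 in A19 and 3369 in A20. No mutant reached the level of a control in any of the 3 comparisons, as the labels imply. The fall was 1.02 (SE 0.12) on the log2 scale at E12.5 (limma, adjusted p = 6.28e-05), 0.74 (SE 0.12) in the Sox1Cre line at E13.5 (adjusted p = 0.0021) and 0.71 (SE 0.12) in the NestinCre line (adjusted p = 0.0297). With a library left out, the NestinCre call passed in 1 of 8 fits (limma, adjusted p up to 0.11), and it was lost with Xist as a covariate (-0.68, adjusted p = 0.0617). The counts cover the whole gene and do not separate deleted from remaining exons.

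The tissue markers were present in all groups: Lhx2, a selector gene of the cortex, averaged 14932 ± 2372 (SD, n = 4) in E12.5 controls and 17454 ± 2755 in E13.5 Sox1Cre controls, and the 10 hem markers summed to 44003 ± 9372 and 25468 ± 4852. Groups differed in Xist, the RNA of the inactive X chromosome. It was between 3659.7 and 4451 in all 4 E12.5 controls and at most 2.26 in all 4 E13.5 Sox1Cre controls, and each of the other 4 groups held both kinds of library. Library A1, an E13.5 Sox1Cre mutant, stood apart from the rest of its group: its choroid plexus markers summed to 7436, against 63018 to 85097 in A2 to A4. Library A18, a NestinCre mutant, stood apart in markers of ventral telencephalon, whose 5 genes summed to 506 there and to between 11.5 and 72.3 in the other 23 libraries. It also had the highest values of Dlx1 (230.3) and Sox10 (61.1).

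Hopx (ENSMUSG00000059325) lies at chr5:77086988-77115121 on the minus strand of GRCm38. Hopxos (ENSMUSG00000087541), a non-coding RNA read from the opposite strand at chr5:77094532-77102303, shares 412 exonic bases with it. RefSeq gives Hopx more than 1 start site, and the bases in front of both are shown here because Hopx is the member whose level fell with Sox9. The motif searched was ACAAT, the letters at the core of sites that SOX proteins bind, on both strands (ACAAT or ATTGT), and any match is in capitals.

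Hopx, start site inside the gene (chr5:77095278-77095517, minus strand, GRCm38.p6): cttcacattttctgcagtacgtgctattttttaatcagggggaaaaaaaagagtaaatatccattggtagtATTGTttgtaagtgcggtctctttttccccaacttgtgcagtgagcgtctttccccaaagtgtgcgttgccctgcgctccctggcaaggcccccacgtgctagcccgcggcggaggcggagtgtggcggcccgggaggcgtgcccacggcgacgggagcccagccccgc
Hopx, start site at the 5′ end of the gene (chr5:77115124-77115373, minus strand, GRCm38.p6): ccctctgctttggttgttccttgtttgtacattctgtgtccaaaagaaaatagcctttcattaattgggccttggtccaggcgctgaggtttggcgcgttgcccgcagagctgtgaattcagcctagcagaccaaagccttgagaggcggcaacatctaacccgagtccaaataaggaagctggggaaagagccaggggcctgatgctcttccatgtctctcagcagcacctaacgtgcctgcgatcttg

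The first stretch has 240 bases of the first intron of the longest Hopx transcript, with the 10 bases nearest the start left off because the annotation places them in an exon, and the second has 250 bases outside the gene. The inner start site had 1 match, 179 bases before the start, and the outer site had none. The RefSeq table held 12 such windows of 250 bases for the 7 members, of which 4 had a match, for Hopx, Lifr and both Tnc starts. Of all 32851 windows of this length, 27.7% had one. A match describes the letters only.

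At E12.5 Hopx was at 289 in A13, 355 in A14, 223 in A15 and 286 in A16 in controls. In Sox9fl/fl;Sox1Cre mutants it was at 189.9 in A9, 147 in A10, 219 in A11 and 182 in A12. Every mutant lay under every control, although A11 and the control A15 were close. The means were 288 ± 53.7 and 185 ± 29.6 (SD, n = 4 each), a change of -0.63 (SE 0.14) on the log2 scale (limma, adjusted p = 0.0406). The exact permutation test gave p = 0.0286, the smallest that 4 against 4 libraries can give, two-sided. In this comparison 0.723% of all tested genes passed and 10.3% had groups without overlap. Of the 6 tested members Hopx alone passed.

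The E12.5 call lay near the threshold and was lost with no filter on low values (adjusted p = 0.055), with Xist as a covariate (0.0537) and with the 8 libraries fitted alone (0.117), all by limma, while the change stayed between -0.67 and -0.63. It also fell short when A9, A10, A12, A13, A14 or A16 was left out, with changes from -0.65 to -0.53 and adjusted p from 0.0761 to 0.134. Among the libraries with high Xist, Hopx was at 147 and 219 in 2 mutants, both under the 4 controls.

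At E13.5 the Sox1Cre controls had Hopx at 477 in A5, 527 in A6, 367 in A7 and 518 in A8. Their mutants had it at 371 in A1, 282 in A2, 287 in A3 and 298 in A4. A1 lay above the lowest control, A7, and the other 3 mutants lay under all controls. The change was -0.60 (SE 0.14) on the log2 scale (limma, adjusted p = 0.0451), and the exact permutation test gave p = 0.0571. In this comparison 0.924% of all genes passed, and 1 of the 6 tested members did, again Hopx. The share of genes whose groups did not overlap was 5.06%, and no member was among them.

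Without A1 the change was -0.69 (limma, adjusted p = 0.0165). The call was lost without A2, A3, A4, A5, A6 or A8 (changes from -0.59 to -0.55, adjusted p from 0.103 to 0.144), with no filter on low values (0.0653), with quantile normalization (0.0512), with Xist as a covariate (0.115) and with the 8 libraries fitted alone (0.239). The 2 mutants with Xist near 0, like all their controls, were A1 and A4, at 371 and 298.

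In the NestinCre line Hopx was at 265 in A21, 344 in A22, 331 in A23 and 336 in A24 in controls and at 259.8 in A17, 234 in A18, 276 in A19 and 262 in A20 in mutants. The control A21 lay far from its 3 neighbours and within the mutants' range, which alone made the groups overlap. The change was -0.30 (SE 0.14) on the log2 scale and did not pass (limma, adjusted p = 0.769), with an interval of 2 SE from -0.59 to -0.01. Without A21 it was -0.39 (adjusted p = 0.838), and without A18 it was -0.25 (adjusted p = 0.99). Here 0.0669% of all genes passed and none of the 6 tested members did, with 1 of them, Hopx, at an unadjusted p under 0.05, as 6.47% of all genes were, and edgeR and DESeq2 on the recovered reads gave 0 members too. Groups without overlap were found for 4.98% of genes and for no member.

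The mean of the 3 changes of Hopx was -0.51 (SE 0.08) (limma, adjusted p = 0.000921). This mean includes the E13.5 changes, and the study chose Hopx from those libraries, so it is not independent of that choice. It was past the threshold in the 8 other settings that differ from it and without each of the 24 libraries in turn, from -0.55 to -0.48 when a library was left out. Of all genes 2.52% passed this test, and of the 6 tested members 1 did. The change in the Sox1Cre line minus that in the NestinCre line was -0.30 (SE 0.20) and did not pass (adjusted p = 0.782), where 0.0425% of genes did. Between E13.5 and E12.5 the changes in the Sox1Cre line differed by 0.03 (SE 0.20) (adjusted p = 0.987, interval of 2 SE -0.38 to 0.44). No gene of 16454 passed that last test (0.0%) with limma or edgeR, 1217 had an unadjusted p under 0.05 with limma, and DESeq2 called 20.

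**Figure D1:**
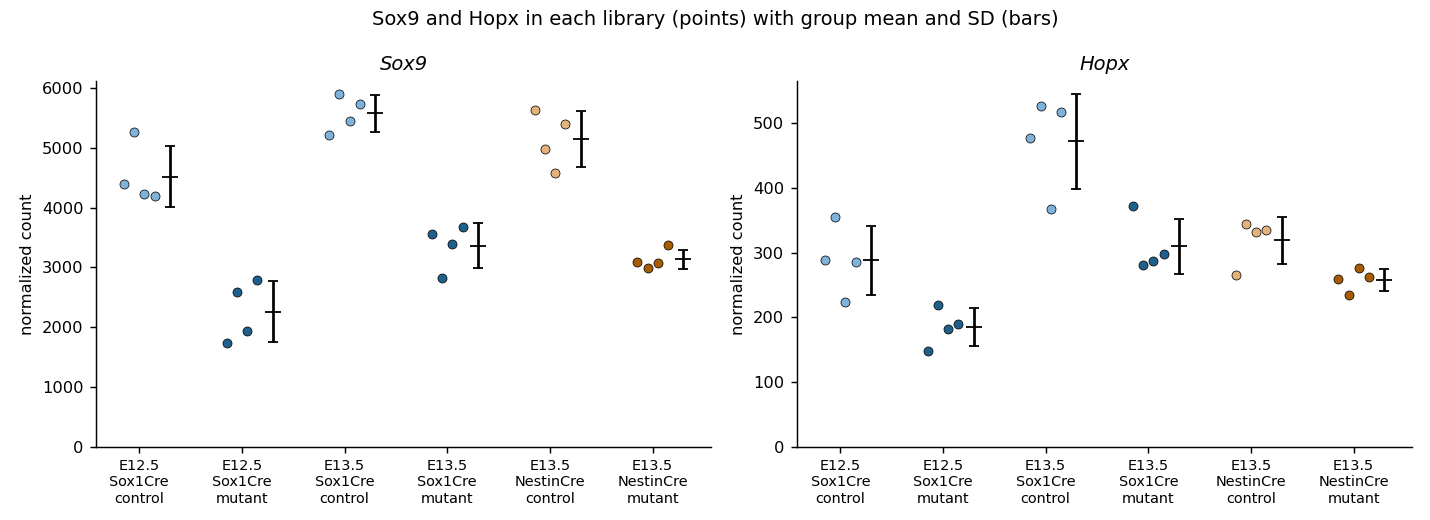
Normalized counts (linear axis from 0) of Sox9 and Hopx in each of 24 libraries (points) with the group mean and SD (bars, n = 4), by age, Cre line and genotype. Sox9 separates mutants from controls in all 3 pairs, whereas Hopx does so at E12.5 and is overlapped at E13.5 by A1 in the Sox1Cre line and by A21 in the NestinCre line.

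Hopx also changed with age. From E12.5 to E13.5 it rose by 0.72 (SE 0.14) on the log2 scale in Sox1Cre controls (limma, adjusted p = 0.00444), and no E12.5 control reached an E13.5 control. It rose by 0.75 (SE 0.14) in the mutants (adjusted p = 0.00107), again without overlap. Many genes differed by age: 11.5% passed in controls and 25.9% in mutants, and 9.23% and 12.4% were higher at E13.5 without overlap, as Hopx was. In controls, age cannot be told apart from the Xist state of the libraries, and with Xist as a covariate the rise was 0.64 (adjusted p = 0.126). The mutants of both ages held 2 libraries of each kind, and their rise passed in all 9 other settings and without each of the 8 libraries in turn. The comparisons of mutants by age and by line were added after the data had been seen.

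At E13.5 all 4 Sox1Cre controls had more Hopx than all 4 NestinCre controls, with means of 472 ± 73.2 and 319 ± 36.3 (SD, n = 4 each). This difference of 0.56 (SE 0.14) did not pass (limma, adjusted p = 0.116; DESeq2 0.0139), where 0.243% of genes did and 6.22% had groups without overlap. Between the mutants of the 2 lines it was 0.25 (SE 0.14) (adjusted p = 0.464), also without overlap, with 1.07% of genes passing and 6.84% without overlap. In order of the group mean, Hopx stood highest in E13.5 Sox1Cre controls, then in NestinCre controls (319 ± 36.3), E13.5 Sox1Cre mutants (309 ± 41.8), E12.5 controls (288 ± 53.7), NestinCre mutants (258 ± 17.4) and E12.5 mutants (185 ± 29.6). The 4 groups in the middle overlapped with their neighbours in this order, and the first and the last group did not.

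Among the members the order of levels, per kilobase of exon and as the mean over 24 libraries, was Il6st (313), Hopx (201), Tnc (152), Ptprz1 (102), Lifr (55.6), Fam107a (17.8) and Hopxos (2.05). Sox9 was at 968 on this scale. Hopx rested on 143 to 1113 reads per library and Fam107a on 30 to 119.

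Hopxos, the antisense RNA of the Hopx locus, had 0 to 15 reads per library and did not reach a value of 10 in any of them. By group it averaged 1.62 ± 1.66 in E12.5 controls, 3.55 ± 1.97 in E12.5 mutants, 4.69 ± 2.16 and 2.18 ± 1.7 in E13.5 Sox1Cre controls and mutants, and 5.2 ± 2.77 and 3.17 ± 0.46 in the NestinCre line (SD, n = 4 each). The groups of each pair overlapped, and exact permutation tests gave p = 0.171, 0.143 and 0.114. A difference was not detectable at this depth. The strand setting of the counting is not given in the sources used here, so reads of Hopx and Hopxos over their 412 shared exonic bases cannot be told apart.

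Ptprz1, the phosphatase that binds tenascin-C and pleiotrophin, lies at chr6:22875502-23052916. It varied more between replicates than Hopx did. At E13.5 the Sox1Cre controls had 1342 in A5, 2757 in A6, 1541 in A7 and 2198 in A8, and their mutants 1568 in A1, 759 in A2, 940.5 in A3 and 1531 in A4. A2 and A3 lay under all controls, and A1 and A4 within their range. Its change was -0.72, larger in size than that of Hopx but with an SE of 0.29 against 0.14, and it did not pass (limma, adjusted p = 0.324).

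At E12.5 Ptprz1 was at 1414 in A13, 2039.7 in A14, 1174 in A15 and 1057 in A16 in controls and at 753 in A9, 1227 in A10, 887 in A11 and 1411 in A12 in mutants. The groups overlapped, and the change was -0.41 (SE 0.29) (adjusted p = 0.57), from -0.55 without A12 to -0.22 without A14. In the NestinCre line it was at 1933 in A21, 1532 in A22, 1077 in A23 and 1684 in A24 in controls and at 1141 in A17, 2197 in A18, 1557 in A19 and 1129 in A20 in mutants. That change was -0.07 (SE 0.29), with adjusted p = 1, and the mutant A18 was above every control. Without A18 the change was -0.27 (adjusted p = 1). The mean of the 3 changes was -0.40 (SE 0.17) with adjusted p = 0.24 (all limma) and an interval of 2 SE from -0.73 to -0.06.

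Tnc, the gene of tenascin-C, lies at chr4:63959785-64047015 and leaned the other way from Hopx. At E13.5 it was at 783 in A5, 1083 in A6, 1455 in A7 and 1279.8 in A8 in Sox1Cre controls. In the mutants it was at 1024 in A1, 1509 in A2, 1345 in A3 and 3789 in A4. A4 stood far above every other library of both groups, and the other 3 mutants ran from within the control range to just above it. The change was 0.58 (SE 0.30) (limma, adjusted p = 0.469) with A4 and 0.19 (adjusted p = 0.871) without it. At E12.5 Tnc was between 589.5 and 1224 in controls and between 652 and 1092 in mutants, a change of 0.10 (SE 0.30). In the NestinCre line it was between 864 and 1314 in controls and between 1017 and 1384 in mutants, a change of 0.18 (SE 0.30). The groups overlapped in both and neither change passed (adjusted p = 0.913 and 1, limma). With a library left out, the NestinCre change of Tnc ran from 0.10 without A23 to 0.30 without A21.

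Il6st encodes gp130, the signalling chain that LIFR shares with other cytokine receptors, and lies at chr13:112464070-112510086. At E13.5 it was at 3850.4 in A5, 3279 in A6, 3675 in A7 and 3549.8 in A8 in Sox1Cre controls and at 2553 in A1, 3723 in A2, 3014 in A3 and 2936 in A4 in mutants. A1, A3 and A4 lay under all controls and A2 among them. The change of -0.24 (SE 0.10) did not pass (limma, adjusted p = 0.312), and without A1 it was -0.16 (adjusted p = 0.371). Il6st was within 3411 to 4504 in E12.5 controls and 3546 to 3975 in E12.5 mutants, and within 3083 to 3336 in NestinCre controls and 2945 to 3819 in their mutants. Both pairs overlapped, with changes of -0.01 (SE 0.10) and 0.04 (SE 0.10).

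Lifr, the ligand-binding partner of gp130, lies at chr15:7090614-7197489 and varied little between groups. It averaged 556 ± 105 in E12.5 controls and 532 ± 80.1 in E12.5 mutants. At E13.5 it averaged 628 ± 93.8 and 669 ± 104 in Sox1Cre controls and mutants, and 625 ± 109.8 and 586 ± 62.0 in NestinCre controls and mutants (SD, n = 4 each). All groups overlapped within their pairs, and the intervals of 2 SE were -0.36 to 0.25, -0.21 to 0.39 and -0.39 to 0.22 on the log2 scale.

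Fam107a, which encodes the actin-associated protein, lies at chr14:8296274-8318023 and had the lowest level of the tested members. At E13.5 it was at 64.6 in A5, 56.4 in A6, 61.8 in A7 and 47.4 in A8 in Sox1Cre controls and at 106 in A1, 58.1 in A2, 54.7 in A3 and 62.6 in A4 in mutants. A1 was far above the other 3 mutants, which lay among the controls, and the change went from 0.24 (SE 0.21) with A1 to 0.03 without it, neither past the threshold (limma, adjusted p = 0.724 and 0.955). In NestinCre controls it was at 79.5 in A21, 77.0 in A22, 75.6 in A23 and 92.7 in A24, and in their mutants at 77.5 in A17, 68.7 in A18, 96.2 in A19 and 78.9 in A20, with a change of -0.02 (SE 0.21). At E12.5 the values ran from 53.2 to 79.5 in controls and from 38.2 to 72.9 in mutants, a change of -0.10 (SE 0.21). All 4 Sox1Cre controls at E13.5 lay under all 4 NestinCre controls, opposite in direction to Hopx, by -0.49 (SE 0.21) on the log2 scale, which did not pass (limma, adjusted p = 0.408).

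By age, 3 of the 6 tested members passed between E12.5 and E13.5 in Sox1Cre mutants: Hopx and Tnc were higher at E13.5 (Tnc 0.89 (SE 0.30), adjusted p = 0.0325) and Il6st was lower (-0.33 (SE 0.10), adjusted p = 0.0167), all by limma. In controls Hopx alone of the 6 passed, and Tnc and Il6st had changes of 0.41 (SE 0.30) and -0.09 (SE 0.10). Without A4 the rise of Tnc in mutants was 0.50 (adjusted p = 0.142), and its call was also lost without A10 or A12. Without A1 the change of Il6st was -0.24 (adjusted p = 0.0657), and without A12 it was -0.31 (adjusted p = 0.0505). In the other settings Tnc did not pass with no filter on low values (0.89, adjusted p = 0.0524) and the 8 libraries fitted alone (0.89, adjusted p = 0.144), and Il6st did not pass with the 8 libraries fitted alone (-0.33, adjusted p = 0.074). The share of all genes that passed was as given above for Hopx, 25.9% in mutants and 11.5% in controls.

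**Figure D2:**
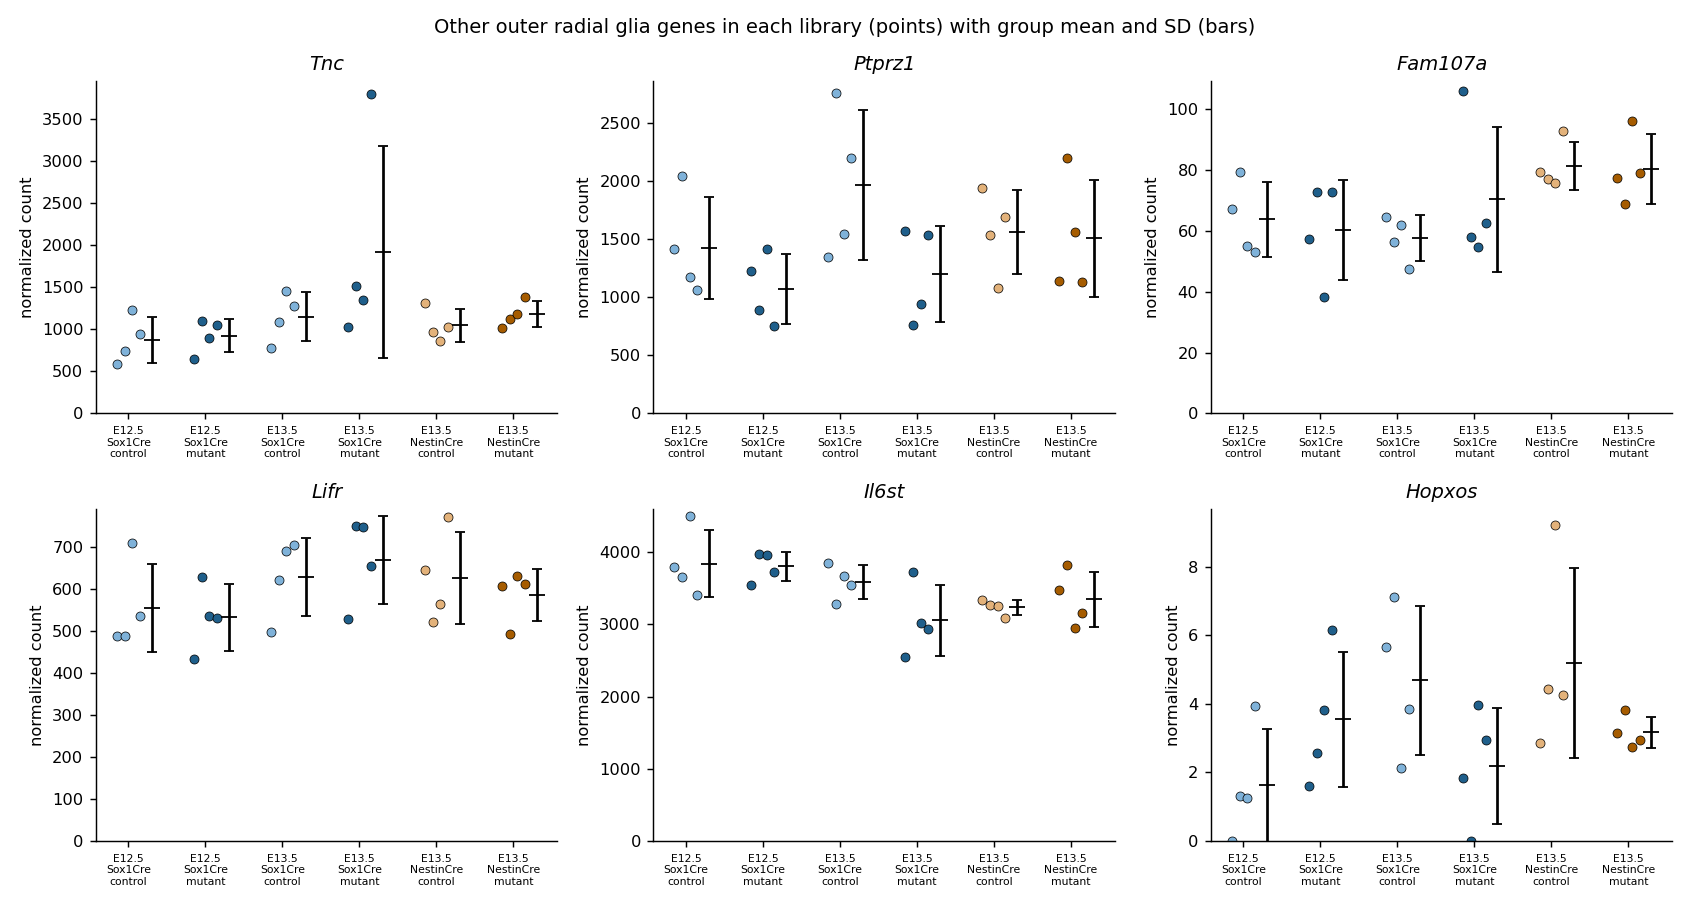
Normalized counts (linear axes from 0) of Tnc, Ptprz1, Fam107a, Lifr, Il6st and Hopxos in each of 24 libraries (points) with the group mean and SD (bars, n = 4). Mutants and their controls overlap in every pair, and single libraries stand out in the E13.5 Sox1Cre mutants, A4 for Tnc and A1 for Fam107a.

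**Figure D3:**
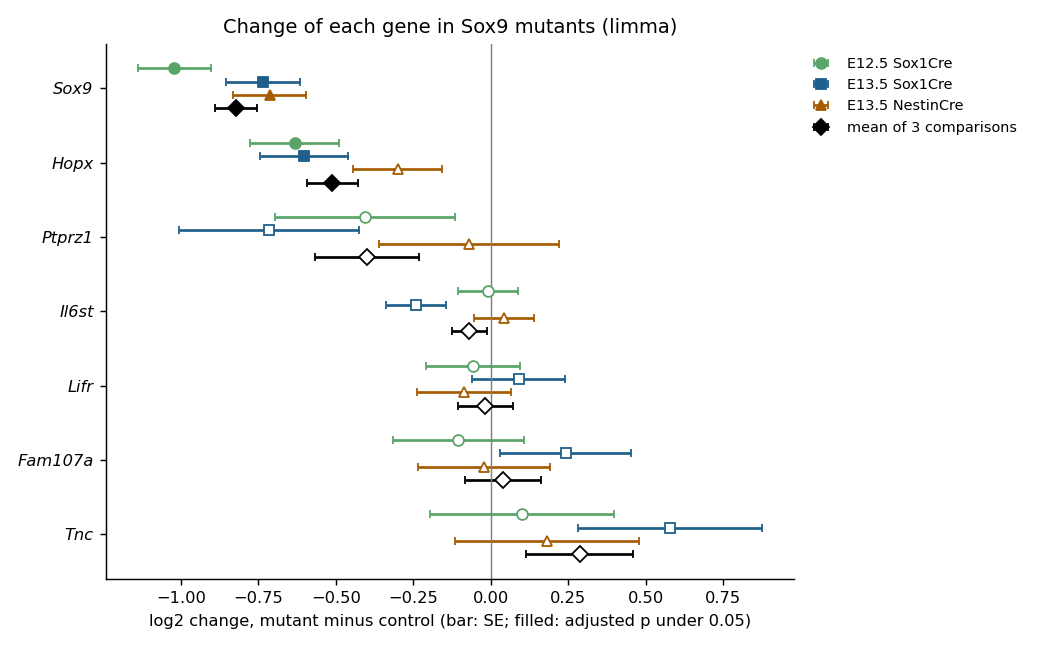
Log2 change from control to mutant (points) with its SE (bars) for Sox9 and the 6 tested members in the 3 mutant comparisons and their mean, limma on log2(value + 1), filled where the adjusted p is under 0.05. Sox9 is filled in all 4 and Hopx in 3, with the NestinCre change open, and the other 5 members have open points on both sides of 0.

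Of the 5 tested members other than Hopx, 2 had a positive and 3 a negative mean change, with a median of -0.02 on the log2 scale, where the median of all tested genes was -0.0013. Their medians were -0.06 at E12.5, 0.09 in the Sox1Cre line at E13.5 and -0.02 in the NestinCre line.

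No further gene of the outer radial glia signature passed as lower in the mutants. Of 10 such genes, all tested, 1 passed in the mean of the 3 comparisons, as 2.52% of all genes did, and 9 had positive and 1 negative changes (median 0.10). It was Palld, which encodes the actin scaffold palladin, and it rose by 0.20 (SE 0.05, limma, adjusted p = 0.0394). Its change was 0.20 at E12.5, 0.21 in the Sox1Cre line at E13.5 and 0.20 in the NestinCre line, and none of these passed alone. With each library left out in turn, Palld passed in the mean in 8 of 24 fits (changes from 0.17 to 0.23, limma adjusted p up to 0.077). It did not pass with no filter on low values (0.20, adjusted p = 0.0636). The other abundant genes of this list, Gli3 of the hedgehog pathway and the growth factor gene Bmp7, had mean changes of 0.05 and 0.07.

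The genes of the partners did not pass either. Of 20 genes of LIF and gp130 signalling 15 were tested and none passed by limma in a single comparison or in the mean, with 2 at an unadjusted p under 0.05 in the mean, where 15.5% of all genes were. These were Socs3, the feedback inhibitor of the pathway (0.15, adjusted p = 0.147), and the kinase gene Jak2 (0.11, adjusted p = 0.279). Stat3, the transcription factor that gp130 activates, had a mean change of 0.04. In both E13.5 comparisons none of the 15 had such a p, and at E12.5 it was 3, where 2217 of all 16454 genes did. By edgeR and DESeq2 on the recovered reads, 0 genes of this list passed in the 3 comparisons or their mean. The ligand genes Lif, Il6, Il11 and Osm did not pass the filter, with mean values from 0.0852 to 2.16. The most abundant genes of the list, Ptpn11, Jak1 and Cntfr, had mean changes of -0.04, -0.00076 and -0.10.

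Of 16 genes for partners of tenascin-C and PTPRZ1, 15 were tested and none passed by limma in any of the 3 comparisons or in the mean, and none had an unadjusted p under 0.05. The count was 0 by edgeR and by DESeq2 too. Mdk and Ptn, the ligands midkine and pleiotrophin of PTPRZ1, had changes of 0.09 and 0.09 in the mean of the 3, and Itgb1 and Vcan, an integrin chain and the proteoglycan versican, of 0.01 and 0.10. Of the 5 genes for partners of HOPX none passed, and 1, Srf, had an unadjusted p under 0.05 in the mean, as 15.5% of all genes did, and at E12.5. Hdac2, Hdac1 and Hdac3 had changes of 0.01, -0.04 and -0.05 in the mean, and Srf, serum response factor, one of 0.26 at E12.5 (unadjusted p = 0.00129, adjusted p = 0.0884, limma). DESeq2 called Srf at E12.5 and edgeR called 0 of the 5.

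Of the genes of radial glia in general, Vim alone passed. Of all genes, 0.924% passed in the Sox1Cre line at E13.5 and 2.52% in the mean. Of 10, all tested, Vim, the intermediate filament gene, fell by 0.26 in the Sox1Cre line at E13.5 (limma, adjusted p = 0.0289) and by 0.14 in the mean (adjusted p = 0.0296). Its values were 33932 ± 612 in Sox1Cre controls and 28286 ± 1404 in mutants at E13.5 (SD, n = 4 each). As for Hopx, the study named Vim from the E13.5 libraries, and its direction at that age is not independent evidence. The mean change of Vim includes that age. With each library left out in turn, Vim passed at E13.5 in 4 of 8 fits (changes from -0.29 to -0.24, limma adjusted p up to 0.117). It did not pass with quantile normalization (-0.16, adjusted p = 0.482), Xist as a covariate (-0.24, adjusted p = 0.0928) and the 8 libraries fitted alone (-0.26, adjusted p = 0.248). With each library left out in turn, Vim passed in the mean in 16 of 24 fits (changes from -0.16 to -0.13, limma adjusted p up to 0.0576). It did not pass with no filter on low values (-0.14, adjusted p = 0.0504) and quantile normalization (-0.13, adjusted p = 0.161). Sox2 and Nes, genes of the progenitor state, had changes of 0.01 and 0.06 in the mean without passing, and Pax6 one of 0.12 (adjusted p = 0.295).

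In the list of astrocytic progenitors and adult stem cells, Gfap and S100b, genes of mature astrocytes, stayed under the filter. The most abundant genes of the list, the nuclear factor genes Nfib, Nfix and Nfia, had mean changes of -0.04, -0.19 and 0.09, and none of these 3 passed (limma, adjusted p = 0.923, 0.582 and 0.701). Of Sox8 and Sox10, the relatives of Sox9, Sox10 was not tested, and Sox8 rose by 1.09 in the mean (SE 0.28, adjusted p = 0.0381, limma), where 2.52% of all genes passed. Its changes were 1.38, 1.62 and 0.25 in the Sox1Cre line at E13.5, the NestinCre line and at E12.5. With each library left out in turn, Sox8 passed in the mean in 8 of 24 fits (changes from 0.97 to 1.22, limma adjusted p up to 0.07). It did not pass with no filter on low values (1.09, adjusted p = 0.0632), quantile normalization (adjusted p = 0.0701) and edgeR (1.08, adjusted p = 0.0605).

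**Figure D4:**
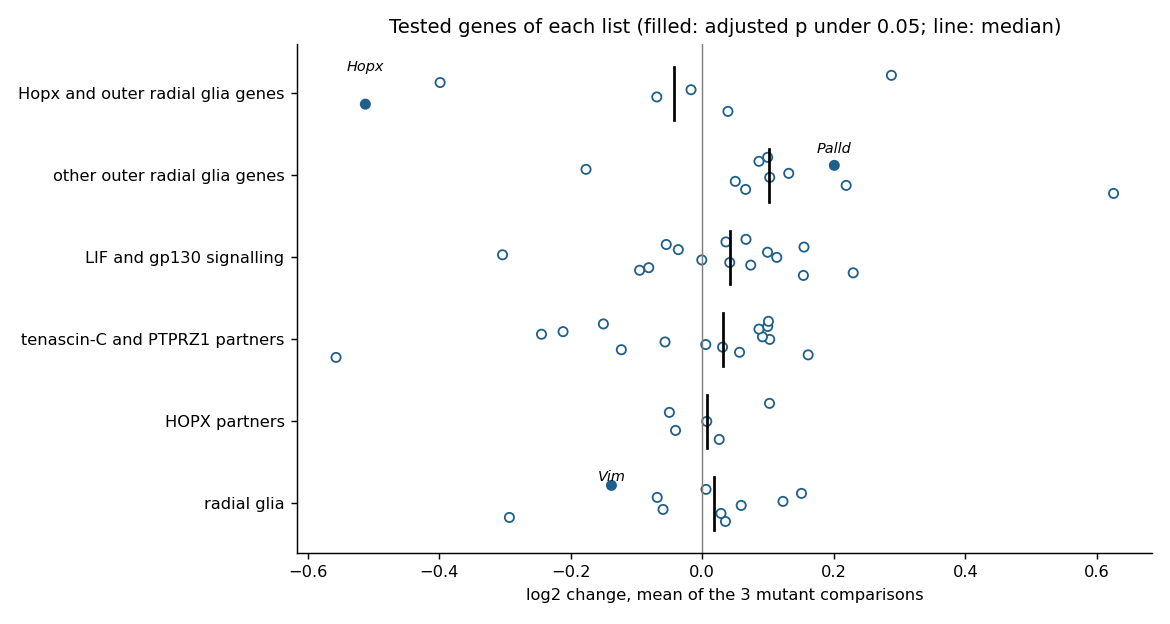
Log2 change averaged over the 3 mutant comparisons (limma) for the tested genes of 6 lists (points), filled where the adjusted p is under 0.05, with the list median (line). Hopx is the only filled point of its own list, and Palld and Vim are the filled points of the others.

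Within groups, where each library was compared with the mean of its own group, the correlation of Hopx with the other members took both signs. Over the 24 libraries its Pearson correlation was 0.45 with Fam107a, 0.20 with Ptprz1, -0.21 with Lifr, -0.27 with Tnc and -0.47 with Il6st, and -0.02 with the mean of these 5. With Sox9 it was 0.49. The 10 genes most like Hopx by this measure, of 11829 with a mean of at least 100, were Gm42372, Cdk17, Stox2, A730056A06Rik, Dct, Tcp11l1, Rgs20, Sh3gl2, Fam98b and Cdon, with correlations from 0.82 to 0.72. None of these 10 passed in a mutant comparison or in the mean (lowest adjusted p 0.141, limma). The libraries share their normalization, so these correlations describe these libraries only.

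The libraries with more Hopx than their group also had more of the 6 markers of archicortical neuroepithelium (correlation 0.54) and less of the 5 choroid plexus markers (-0.46), whose sum is 76.0% Ttr. The correlation was -0.33 with the hem markers, -0.35 with those of meninges and 0.22 with those of intermediate progenitors and neurons. Between groups, the neuroepithelial markers summed to 30267 ± 3523 in E12.5 controls and 25076 ± 4188 in E12.5 mutants (SD, n = 4 each), with Lhx2 the most abundant, and all 6 had negative changes at E12.5, of which none passed (limma) and 2, Lhx2 and Lef1, had an unadjusted p under 0.05, as 2217 of all 16454 genes did. At E13.5 the sums were 34882 ± 3929 and 34899 ± 5174 in the Sox1Cre line. Library by library, the E12.5 sums were 34842 in A13, 31229 in A14, 27342 in A15 and 27654 in A16 in controls and 28178 in A9, 25133 in A10, 27857 in A11 and 19138 in A12 in mutants, which overlapped. The choroid plexus sums were 22525 ± 5486 and 32641 ± 9184 at E12.5, and 43839.5 ± 17770.3 and 56458 ± 33948 at E13.5. The 10 hem markers, led by Wnt8b, summed to 44003 ± 9372 and 50717 ± 10240.4 at E12.5 and to 25468 ± 4852 and 24921 ± 7941 at E13.5. No hem or choroid plexus marker passed in any of the 3 comparisons or in the mean (limma), and none had an unadjusted p under 0.05. Of the other 8 marker lists (Cajal-Retzius cells, intermediate progenitors and neurons, meninges, endothelium and pericytes, erythroid cells, microglia, ventral telencephalon and oligodendrocyte precursors), no gene passed in the 3 comparisons, and in the mean Neurog2, a transcription factor of neuronal commitment, fell by 0.26 (adjusted p = 0.0495, limma), where 2.52% of all genes passed. With each library left out in turn, Neurog2 passed in the mean in 6 of 24 fits (changes from -0.29 to -0.22, limma adjusted p up to 0.0901). It did not pass with no filter on low values (-0.26, adjusted p = 0.0778), quantile normalization (-0.24, adjusted p = 0.0613) and edgeR (-0.25, adjusted p = 0.0504). DESeq2 also called Lhx5, a Cajal-Retzius gene, in the mean (0.65, limma adjusted p = 0.0901), and edgeR called none of these markers. Sox10, the defining gene of the oligodendrocyte lineage, was listed at 0 in all libraries of 4 groups, and its highest value was that of A18. The part of tissue composition in the Hopx result was not tested.

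**Figure D5:**
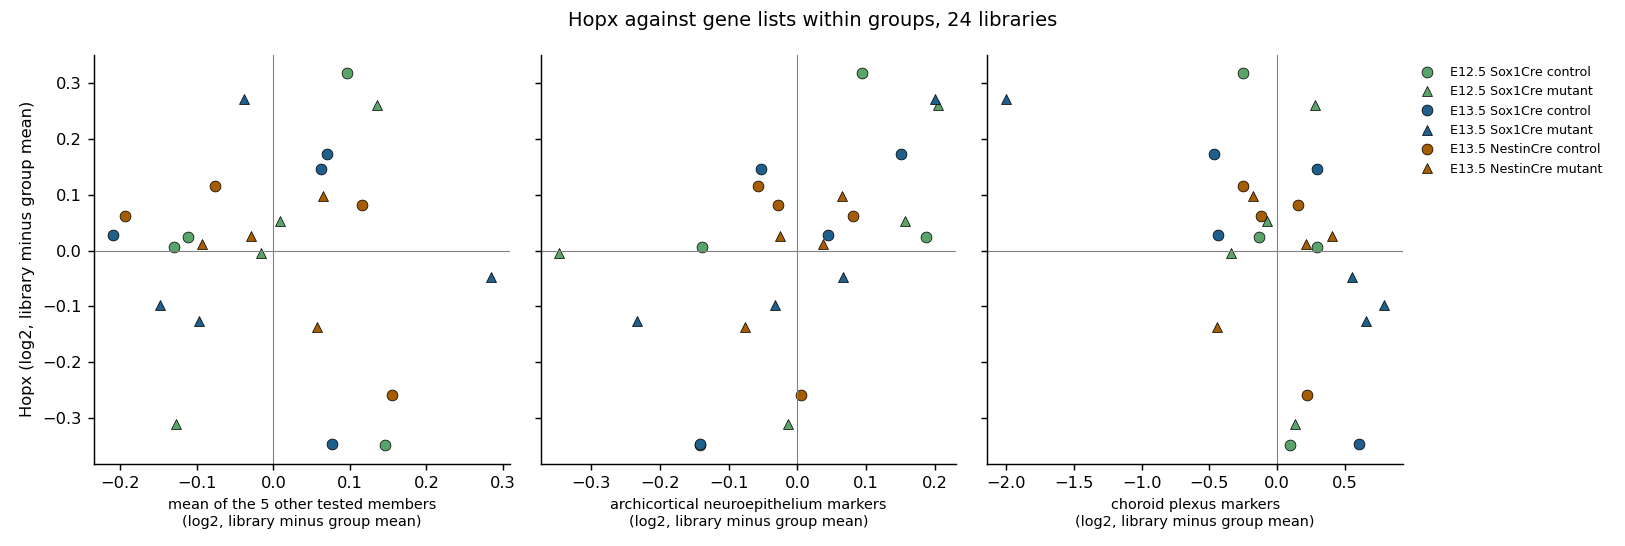
Hopx in each of 24 libraries (vertical axis, log2 value minus the mean of its group) against the mean of the other 5 tested members, of 6 archicortical neuroepithelium markers and of 5 choroid plexus markers (horizontal axes, same scale), coloured by pair with circles for controls and triangles for mutants. The points show no trend in the first panel (correlation -0.02), rise in the second (0.54) and fall in the third (-0.46), where A1 is the point at the far left.

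The neighbours of Hopx on chromosome 5 did not pass. Of the genes whose start lies within 500 kb of that of Hopx, 11 others were tested, and none passed in the 3 comparisons or in the mean (limma). Rest, which encodes a repressor of neuronal genes and starts 150.4 kb from Hopx, had a mean change of 0.04. Srp72, of the signal recognition particle, had the lowest adjusted p of the 11 in the mean (0.0889), with a change of -0.07. Thegl, with a mean value of 12.7, had a mean change of 0.32, and the others lay between -0.12 for Ppat and 0.01 for Igfbp7.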

How the data were processed

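Dissected ARK tissue was profiled by mRNA-seq in 24 libraries. Per the labels and the study's methods, the authors trimmed reads (Trimmomatic 0.36), aligned them with STAR 2.5.2a, counted them with RSEM 1.2.31 and normalized with DESeq2. The deposited values are a signal: gene counts that the authors divided by library size factors. The annotation used here for names and coordinates was GENCODE M21 on GRCm38, and 51633 of 51912 IDs were named. Within a library, 100.0% of values were whole multiples (within 0.1) of what 1 read is worth, and the recovered reads gave the depths and the count tests.

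Genes that reached a value of 10 in 4 or more libraries were fitted with limma 3.58.1 (R 4.3.3) on log2(value + 1), with 1 mean per group over all 24 libraries and Benjamini-Hochberg adjustment over 16454 genes at a threshold of 0.05. Fold changes are on this log2 scale, which understates changes of low genes. Single values were compared by two-sided exact permutation tests (Python 3.11.15, scipy 1.17.1, numpy 2.4.6, pandas 2.3.3), and figures were drawn with matplotlib 3.10.9. The fits were tested on simulated data. Alternatives were pseudocounts of 0.5 and 5, no filter, a mean of at least 100, quantile normalization, Xist as a covariate, edgeR 4.0.16 and DESeq2 1.42.0 on recovered reads, only the groups compared, and leaving out each library.

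Replicates differed beyond sampling noise (chi-square per degree of freedom from 8.24 to 78.0 over 36 pairs), so none was merged. Named genes are all members, the called and up to 3 most abundant genes of each list, and the 10 genes most like Hopx; others named for an unadjusted p or as known members of a pathway were chosen after their values were seen. The members, lists and comparisons were chosen with earlier results of these data known. Results of some genes of the lists are not reported here.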

Additional observations from a re-analysis of the deposited data

Results flagged for a closer look

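Of 42 sets of 4 libraries (7 genes in 6 groups), 3 held a library far from the other 3 of its group, and about 1 in 20 such sets is expected to by chance. In NestinCre controls, A21 was the lowest for Hopx at 265, below the 3 others. In E13.5 Sox1Cre mutants, A1 was the highest for Fam107a at 106. In NestinCre mutants, A18 was the lowest for Lifr at 494.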

How the results depend on the processing

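No paired analysis was made, because the labels do not say which libraries share a litter. The replicate numbers only repeat the library numbers, so they cannot show whether groups are paired. Fold changes here are log2 values, and p-values are adjusted (limma unless named). The mean change of Hopx over the 3 comparisons passed in all 8 alternatives (it uses all groups, so fitting only the groups compared could not differ) and all 24 fits that left out a library (-0.55 to -0.48). These fits share the E13.5 libraries from which the study chose Hopx, so they are not independent of that choice. In the Sox1Cre line at E13.5 its call was lost with no filter (-0.60, limma, adjusted p = 0.0653), quantile normalization (-0.63), Xist as a covariate (-0.56) and only the groups compared (-0.60), so that 0 members passed in these 4, and at E12.5 with no filter (-0.63), Xist (-0.67) and only the groups compared (-0.63), again leaving 0 members. With a library left out Hopx ranged from -0.72 to -0.55 at E13.5 and -0.75 to -0.53 at E12.5, past the threshold in 2 of 8 fits each, and members past it ranged from 0 to 1. The cause was not tested. With Xist as a covariate the age difference in controls was 0.64 (limma, adjusted p = 0.126), and by DESeq2 the line difference in controls was 0.57 (adjusted p = 0.0139).

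Counts of genes past the threshold rose with DESeq2 to 358 (Sox1Cre, E13.5), 294 (E12.5), 37 (NestinCre) and 712 (mean of 3). With only the groups compared they were 44 at E13.5 and 76 at E12.5. For NestinCre they were 5 with no filter, 5 with a mean of at least 100, 5 with edgeR and 2 with the Xist covariate. With a library left out they ranged from 90 to 510 (Sox1Cre, E13.5), 2 to 7 (NestinCre), 50 to 139 (E12.5) and 308 to 987 (mean of 3). The Sox9 call in NestinCre passed in 8 of 9 alternatives and in 1 of 8 fits without a library.

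Among changes near 0 that did not pass, signs turned with the Xist covariate for Ptprz1 (0.010) and Fam107a (0.019) in NestinCre and Tnc (-0.0016) and Il6st (0.036) at E12.5, and with quantile normalization for Il6st at E12.5 (0.030) and Fam107a in the mean of 3 (-0.015). With a library left out they turned for Lifr at E13.5 in Sox1Cre (-0.017 to 0.20), in NestinCre (-0.17 to 0.021), at E12.5 (-0.14 to 0.067) and in the mean (-0.053 to 0.024), for Fam107a in NestinCre (-0.11 to 0.049), at E12.5 (-0.21 to 0.096) and in the mean (-0.032 to 0.11), for Ptprz1 (-0.27 to 0.048) and Il6st (-0.022 to 0.10) in NestinCre, for Il6st (-0.064 to 0.070) and Tnc (-0.071 to 0.28) at E12.5, and for the difference of Hopx between ages (-0.085 to 0.15). Depth limits Hopxos and Fam107a most.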
